A study of Homo sapiens with 8 samples.

Results

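Solute carriers are membrane proteins that move sugars, amino acids, ions, metals, nucleotides and other small molecules across the plasma membrane and the membranes of organelles. The genes described here are the 142 solute carrier genes of an RNA-seq table of 14645 loci: symbols that begin with SLC and a digit, whose 8 libraries average 1 FPKM or more. FPKM counts fragments relative to transcript length and sequencing total. This unit is an assumption because the deposited table names none, and a filtered table of TPM, a related unit, would look alike. Left out were the 5 stress-linked amino acid transporters SLC7A5, SLC3A2, SLC1A5, SLC1A4 and SLC38A2 and the 1 symbol of an antisense transcript. The table held 164 SLC entries under 161 symbols, and 13 symbols fell below the mean of 1. Of the 142 genes, 31 belong to the SLC25 family of mostly mitochondrial carriers and were read apart from the other 111. The symbols include 2 adaptor proteins, SLC9A3R1 and SLC9A3R2, which are not carriers.

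All cells were MCF10A, an immortalised, non-tumorigenic human breast epithelial line. The 4 groups of 2 libraries were AZD6738+IR, with 250 nM of the ATR kinase inhibitor AZD6738 added 2 h before 20 Gy of ionizing radiation, IR, with that dose without the inhibitor, AZD6738, with the inhibitor without radiation, and DMSO, with vehicle only. Inhibitor or vehicle stayed on the cells for 3 days, and all groups grew in the same medium with horse serum, EGF, hydrocortisone, cholera toxin and insulin. RNA was total RNA depleted of ribosomal RNA, from 1 cell line, and no label tells if paired libraries were grown as separate cultures. The p-values therefore measure only the spread between libraries, which may be technical, and the libraries are called A and B as in the table.

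The genes were chosen by symbol and by their mean level over all 8 libraries, and the choice of this gene family was made with earlier results of these data known. Just inside the limit were SLC2A11, SLC43A2, SLC12A7 and SLC44A3, with means of 1.04, 1.06, 1.07 and 1.10 FPKM. Just outside it were SLC25A18, SLC2A13, SLC2A3 and SLC27A6, with means of 0.986, 0.938, 0.904 and 0.904 FPKM. A mean under 1 FPKM in at least 1 group was found for 14 of the 142 genes, so these passed through the groups in which they were higher. Among the genes described below they are SLC12A7, SLC15A3, SLC16A7, SLC28A3 and SLC2A12, and a difference from their low groups is partly a condition of their being described. The median level was 4.61 FPKM over the 142 genes and 5.90 FPKM over the 12809 loci tested.

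Library totals ran between 864306 (AZD6738 B) and 969381 (AZD6738+IR B) in the table's unit, and the read depth behind them is unknown. The 4 most abundant loci took 56.8% and 61.4% of the total in AZD6738+IR libraries, 56.5% and 56.7% in IR libraries, 54.1% and 53.3% in AZD6738 libraries and 53.8% and 53.6% in DMSO libraries. Of 8 markers of breast epithelium, the 5 with an entry (KRT14, KRT17, CDH1, EPCAM and TP63) summed to 4137 and 3863 FPKM in AZD6738+IR libraries, 2320 and 2344 in IR libraries and 1825 and 1854 in AZD6738 libraries, against 1654 and 1663 in DMSO libraries. KRT17 made up most of that sum, with 3360 and 3112 FPKM in AZD6738+IR libraries against 1165 and 1137 in DMSO libraries. EPCAM and TP63 fell in AZD6738+IR against DMSO (limma, log2 differences -0.49 and -1.11, adjusted p = 0.000114 and 2e-05). Of 6 fibroblast, 3 endothelial and 4 blood cell markers, 1, 0 and 1 had an entry. These were DCN, at 1.65 to 4.55 FPKM, and CD68, at 7.41 to 12.1 FPKM, and their part in the results below was not tested. Of 14944 deposited loci 5182 carry no symbol, so a marker without an entry is not shown to be absent. In bulk RNA, fewer cells of a type and less RNA per cell cannot be told apart.

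Carriers divide by where they sit and what drives them. Plasma membrane carriers either let a substrate run down its gradient, as the SLC2 glucose transporters do, or couple it to sodium, protons or chloride, whose gradients are set by ion pumps. SLC39 proteins bring zinc and other metals into the cytosol and SLC30 proteins take zinc out of it. Most SLC25 proteins sit in the inner mitochondrial membrane (SLC25A17 is peroxisomal and SLC25A46 is in the outer membrane), where the adenine nucleotide translocases exchange ADP for ATP and the phosphate carrier brings in the phosphate that ATP synthase uses.

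A pair of promoters is shown because they belong to a carrier that rose in both irradiated groups and to the abundant phosphate importer that fell in both. The sequences are the 250 bases before the annotated start, from RefSeq on GRCh38.p14. SLC2A12 (GLUT12, a facilitative glucose transporter) lies on the minus strand and its window is chr6:134052625-134052874. SLC20A1 (PiT1, a sodium-coupled phosphate importer) lies on the plus strand and its window is chr2:112645689-112645938. Capitals mark GAAA, any pair of bases and GAAA again, the core of interferon-stimulated response elements, in SLC2A12, and TGACNNNGC, the core of antioxidant response elements, in SLC20A1, which carries the complementary letters at both places.
SLC2A12: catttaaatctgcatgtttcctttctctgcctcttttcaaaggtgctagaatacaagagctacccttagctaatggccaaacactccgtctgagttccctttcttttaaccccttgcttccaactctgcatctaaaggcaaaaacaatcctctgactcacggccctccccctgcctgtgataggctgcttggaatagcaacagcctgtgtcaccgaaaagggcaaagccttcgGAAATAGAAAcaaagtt
SLC20A1: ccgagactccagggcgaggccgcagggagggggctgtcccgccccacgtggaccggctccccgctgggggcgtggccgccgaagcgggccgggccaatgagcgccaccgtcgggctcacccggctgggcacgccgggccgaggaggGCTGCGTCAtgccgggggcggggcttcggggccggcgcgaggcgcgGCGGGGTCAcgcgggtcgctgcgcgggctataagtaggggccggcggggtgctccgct
Both strands were searched, and N stands for any base. The repeated GAAA, a motif added after values were seen, lay 17 to 8 bases before the RefSeq start of SLC2A12. SLC2A12 was the 1 promoter with it among 112 of the 142 genes that had an entry, which is 0.893%, against 2.59% of the promoters of tested loci and 3.07% of all 27305 promoters. TGACNNNGC lay 104 to 96 and 58 to 50 bases before the RefSeq start of SLC20A1. GENCODE v29 starts SLC20A1 at 112645857, so the nearer of these lies inside the gene as GENCODE draws it. It ends SLC2A12, on the minus strand, at 134052636, which falls within the match there. It was found in 12.5% of the carriers' promoters, against 12.5% of tested loci and 11% of all promoters. The letters TGATGNAAT or TGATGNAAC, which CHOP and ATF factors bind, were in 0.893% of the carriers' promoters, 0.753% of tested loci and 1.57% of all. TGCNCNC, a loose form of the core of metal response elements, was in 56.2%, against 57.1% of tested loci and 48.4% of all. A match is a run of letters and no measured binding site.

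By level, 18 of the 142 genes had a mean of at least 20 FPKM and 65 of at least 5. The leading 3 were SLC25A6, SLC25A3 and SLC25A5, with means of 222, 211 and 204 FPKM, which made up 10.9%, 10.4% and 10.1% of the summed level of all 142. They were followed by SLC16A3, the lactate exporter MCT4, with 185 FPKM, and by SLC20A1 with 85.8 FPKM. The summed level of the 31 SLC25 genes was 569 and 582 FPKM in AZD6738+IR libraries, 873 and 835 in IR libraries and 1170 and 1137 in AZD6738 libraries, against 1138 and 1096 in DMSO libraries. The other 111 genes summed to 1110 and 1064 FPKM in AZD6738+IR libraries, 1140 and 1167 in IR libraries and 1097 and 1107 in AZD6738 libraries, against 1071 and 1069 in DMSO libraries. The mitochondrial sum was lowest in both AZD6738+IR libraries and the groups did not overlap except between AZD6738 and DMSO, whereas the sum outside SLC25 lay within a narrow range in all groups. These sums are dominated by the few abundant genes named above.

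**Figure D1:**
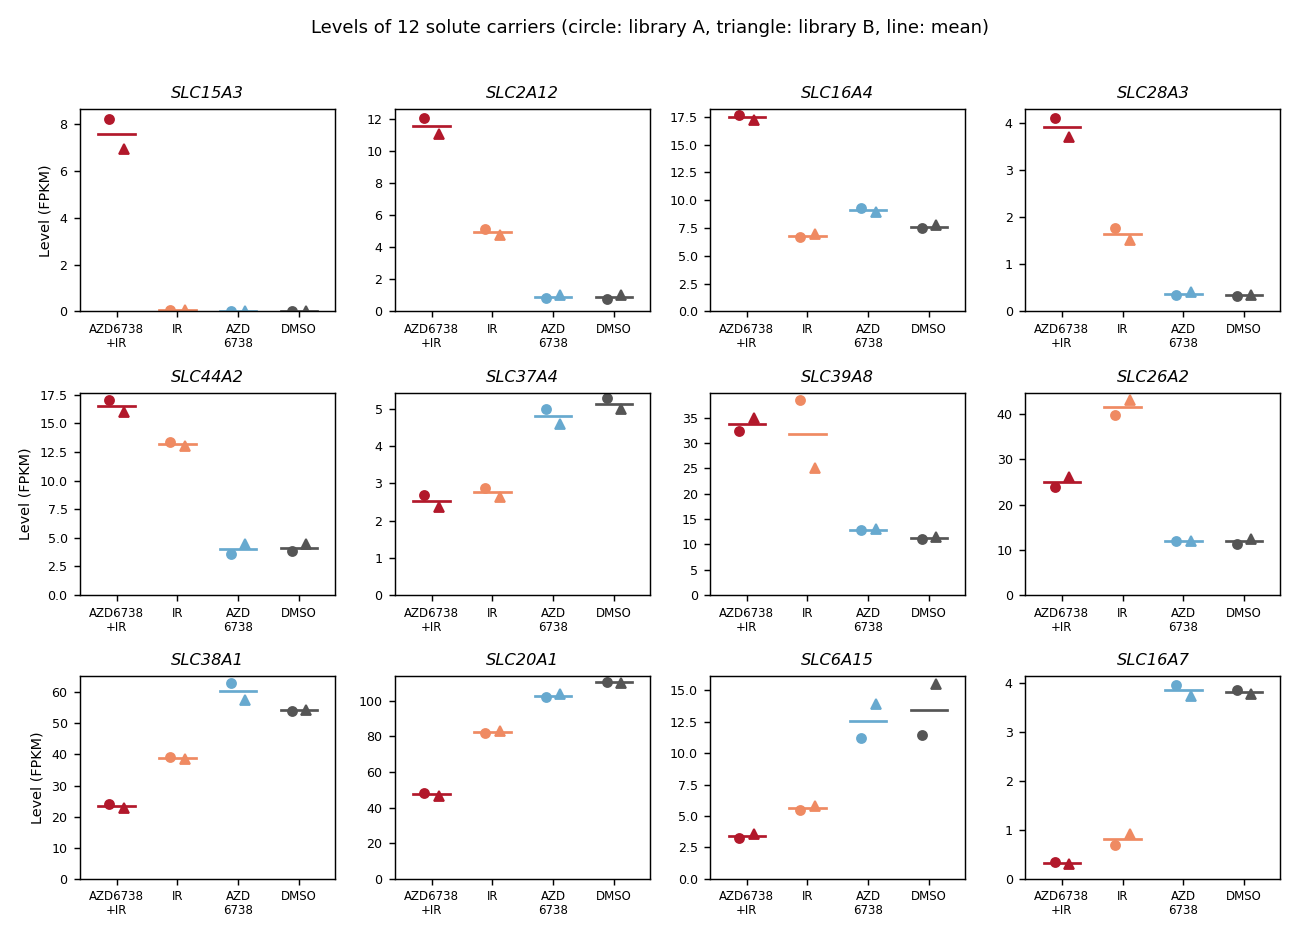
Level in FPKM (linear axes from 0, one scale a panel) of 12 solute carriers outside SLC25, with the groups AZD6738+IR, IR, AZD6738 and DMSO from left to right; circles are library A, triangles library B and lines group means. SLC2A12 was at 12 and 11.1 FPKM in AZD6738+IR libraries against 0.793 and 1.04 in DMSO libraries, and SLC20A1 at 48.4 and 46.7 against 111 and 110.

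AZD6738 without irradiation moved no carrier past the threshold. Against DMSO, 0 of the 111 carriers outside SLC25 and 0 of the 31 SLC25 carriers were called with limma at an adjusted p under 0.05, and 16 and 2 had an unadjusted p under 0.05. Of all tested loci 0.148% were called in this comparison, and 1758 of 12809 had an unadjusted p under 0.05. The median log2 differences were 0.01 outside SLC25 and -0.01 within it, and the extremes over all 142 genes were -0.47 and 0.57. A call missed does not show that levels were alike.

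Irradiation changed carriers in both directions. The sulfate transporter SLC26A2 and the choline transporter-like SLC44A2 were among those that rose most on log2(FPKM + 1). The cystine importer SLC7A11 and the amino acid transporter SLC6A15 were among those that fell most, although the SLC7A11 call ended without IR B or DMSO A. The lactate and pyruvate transporter SLC16A7 was also lower. It passed the mean of 1 FPKM through the unirradiated groups alone, so its fall is no independent support. In IR against DMSO, 33 of the 111 carriers outside SLC25 rose (29.7%) and 30 fell (27.0%), against 23.7% and 38.0% of all tested loci. Their median log2 difference was 0.03, against -0.10 over all loci. Of the 31 SLC25 carriers, 5 rose (16.1%) and 14 fell (45.2%), with a median of -0.28. With the inhibitor added, in AZD6738+IR against DMSO, 37 of 111 rose (33.3%) and 46 fell (41.4%), with a median of -0.09, against 27.1% and 45.6% (72.7% in either direction) of all loci and a median of -0.16. Of the SLC25 carriers 3 rose (9.68%) and 20 fell (64.5%), with a median of -0.54. Set directly against irradiation alone, in AZD6738+IR against IR, 18 of 111 rose (16.2%) and 33 fell (29.7%), against 19.6% and 31.5% (51.1% in either direction) of all loci. Of the SLC25 carriers 2 rose (6.45%) and 18 fell (58.1%), with a median of -0.39 against -0.07 over all loci. In AZD6738+IR against AZD6738, 34 and 3 rose and 46 and 19 fell outside and within SLC25, against 27.1% and 45.2% (72.4% in either direction) of all loci. Outside SLC25 the balance depended on scaling: it was 39 higher and 36 lower there with median centring and 37 and 40 with quantile normalization. In IR against DMSO it was 40 and 26, and 38 and 26, under these scalings. AZD6738+IR is set against 3 groups that share its libraries, and IR and AZD6738+IR share the DMSO libraries, so these counts are not independent of each other.

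By substrate, IR against DMSO gave 5 rises and 2 falls among 11 carriers of sugars and polyols, and 7 and 5 among 16 of metals. There were 5 and 5 among 17 of amino acids and peptides, 5 and 3 among 16 of inorganic ions, and 3 and 4 among 9 of monocarboxylates and dicarboxylates. Carriers of nucleotide sugars had 3 rises and 5 falls among 17, and those of vitamins, choline and fatty acids 3 and 3 among 12. The 4 nucleoside carriers had 1 rise and 1 fall, and the 7 of organic ions and other substrates 1 and 2. No class outside SLC25 moved one way. These counts are small and are read against 23.7% higher and 38.0% lower of all loci, or 61.8% called in either direction.

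**Figure D2:**
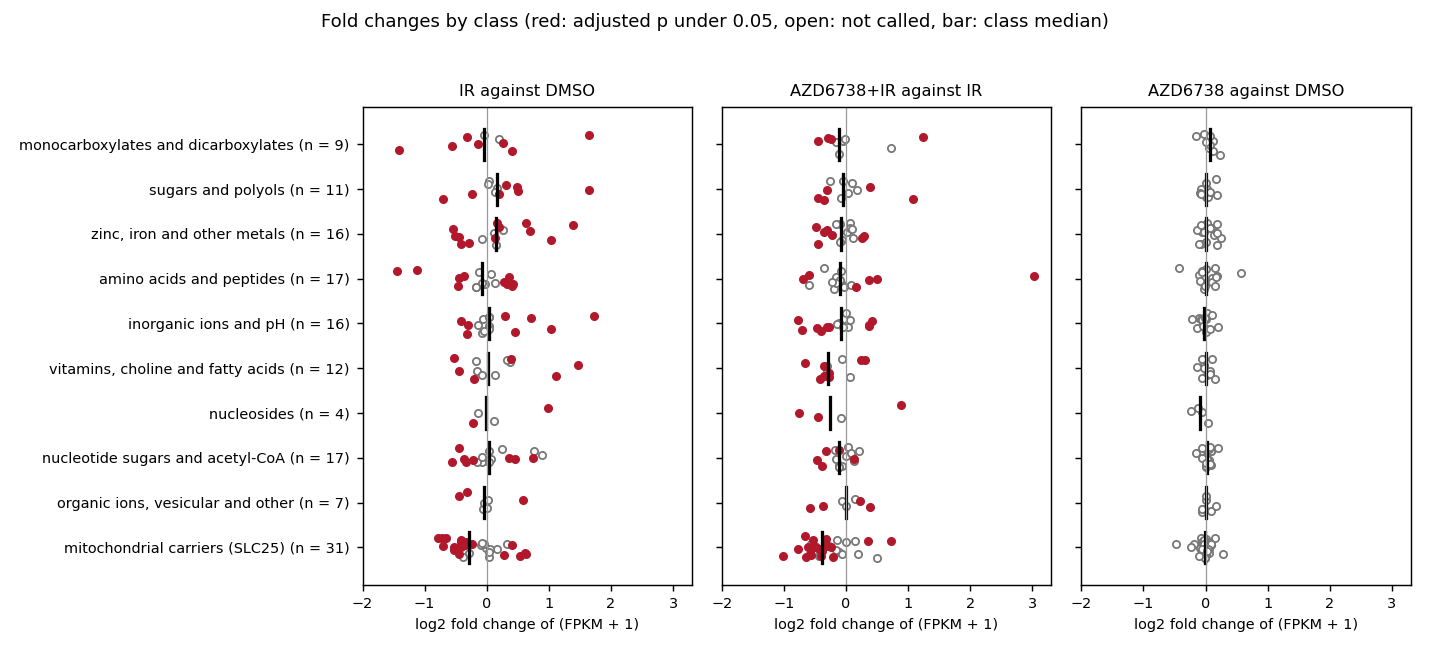
Log2 difference on log2(FPKM + 1) of every carrier, by substrate class, in IR against DMSO, AZD6738+IR against IR and AZD6738 against DMSO; each circle is a gene, red ones passed an adjusted p of 0.05, open ones did not, and black bars are class medians. In IR against DMSO every class has red circles on both sides of 0, and in AZD6738 against DMSO no circle is red. The 2 adaptor proteins are not drawn.

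Among sugar carriers, SLC2A12 rose with irradiation and rose again when the inhibitor was present. Its gene (GENCODE v29, GRCh38, chr6:133988697-134052636, minus strand) had 12 and 11.1 FPKM in AZD6738+IR libraries, 5.14 and 4.76 in IR libraries and 0.813 and 1.05 in AZD6738 libraries, against 0.793 and 1.04 in DMSO libraries. The 2 unirradiated groups overlapped each other, and every irradiated library lay above them, with both AZD6738+IR libraries above both IR libraries. The rise was 5.40-fold in IR against DMSO (log2 difference 1.64, SE 0.0935, adjusted p = 5.57e-05) and 2.33-fold in AZD6738+IR against IR (log2 difference 1.08, SE 0.0935, adjusted p = 0.000372). SLC2A12 passed the mean of 1 FPKM through the irradiated groups alone, so its test and separation from DMSO are no independent support. Differences were computed on log2(FPKM + 1), which understates the change of low genes, whereas folds are ratios of group means. SLC2A1, the main glucose transporter GLUT1, had 39.2 and 34.0 FPKM in AZD6738+IR libraries, 34.2 and 33.7 in IR libraries and 33.0 and 34.4 in AZD6738 libraries, against 34.2 and 32.2 in DMSO libraries. It passed no comparison (adjusted p = 0.725 in IR against DMSO and 0.139 in AZD6738+IR against DMSO). In AZD6738+IR against DMSO it passed with quantile normalization (log2 difference 0.31, adjusted p = 0.00781), with median centring (0.22, adjusted p = 0.018) and without AZD6738+IR B (0.23, adjusted p = 0.0115). Without AZD6738+IR B it also passed against IR (adjusted p = 0.0291) and against AZD6738 (adjusted p = 0.0168).

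The myo-inositol transporter SLC5A3 and the glucose-6-phosphate exchangers of the endoplasmic reticulum, SLC37A1 and SLC37A4, moved in different ways. SLC5A3 had 6.03 and 6.11 FPKM in AZD6738+IR libraries, 8.55 and 8.73 in IR libraries and 6.25 and 6.57 in AZD6738 libraries, against 6.70 and 6.83 in DMSO libraries. It rose in IR against DMSO (log2 difference 0.31, SE 0.0382, adjusted p = 0.000848) and fell in AZD6738+IR against IR (log2 difference -0.45, SE 0.0382, adjusted p = 0.000349), so that IR libraries were the highest. SLC37A1 had 6.15 and 5.89 FPKM in AZD6738+IR libraries, 4.47 and 4.29 in IR libraries and 2.55 and 3.10 in AZD6738 libraries, against 2.71 and 2.89 in DMSO libraries, and rose in IR against DMSO (log2 difference 0.50, SE 0.0760, adjusted p = 0.00206) and in AZD6738+IR against IR (log2 difference 0.38, SE 0.0760, adjusted p = 0.00786). SLC37A4, the translocase that feeds glucose-6-phosphatase, had 2.70 and 2.36 FPKM in AZD6738+IR libraries, 2.88 and 2.64 in IR libraries and 5.00 and 4.60 in AZD6738 libraries, against 5.29 and 4.99 in DMSO libraries. It fell 1.86-fold in IR against DMSO (log2 difference -0.71, SE 0.0699, adjusted p = 0.000368), and AZD6738+IR differed from IR by -0.09 (adjusted p = 0.311).

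Monocarboxylate carriers, the SLC16 family, split by member. SLC16A4, a family member whose substrates are less well known, had 17.6 and 17.2 FPKM in AZD6738+IR libraries, 6.66 and 6.95 in IR libraries and 9.28 and 8.93 in AZD6738 libraries, against 7.47 and 7.74 in DMSO libraries. The AZD6738+IR libraries lay above all others, 2.56-fold above IR (log2 difference 1.24, SE 0.0409, adjusted p = 1.39e-05) and 2.29-fold above DMSO (log2 difference 1.10, SE 0.0409, adjusted p = 4.85e-06). IR was below DMSO by a small amount (log2 difference -0.14, SE 0.0409, adjusted p = 0.0259), a call that ended without IR A or DMSO B (adjusted p = 0.112 to 0.133) and with median centring (adjusted p = 0.172).

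SLC16A7, the high-affinity lactate and pyruvate transporter MCT2, went the other way and was named after its values were seen. It had 0.332 and 0.303 FPKM in AZD6738+IR libraries, 0.685 and 0.918 in IR libraries and 3.95 and 3.74 in AZD6738 libraries, against 3.85 and 3.78 in DMSO libraries. It fell 4.76-fold in IR against DMSO (log2 difference -1.42, SE 0.0709, adjusted p = 3.92e-05) and a further 2.52-fold in AZD6738+IR against IR (log2 difference -0.45, SE 0.0709, adjusted p = 0.00333), with no overlap between irradiated and unirradiated libraries. SLC16A7 passed the mean of 1 FPKM through the unirradiated groups alone, so its test and separation from DMSO are no independent support. SLC16A3 (MCT4) had 196 and 196 FPKM in AZD6738+IR libraries, 193 and 206 in IR libraries and 182 and 177 in AZD6738 libraries, against 171 and 161 in DMSO libraries, a rise of 1.20-fold in IR against DMSO (log2 difference 0.26, SE 0.0476, adjusted p = 0.00413). SLC16A1, the lactate and pyruvate transporter MCT1, had 69.4 and 68.9 FPKM in AZD6738+IR libraries, 30.0 and 57.0 in IR libraries and 26.0 and 53.5 in AZD6738 libraries, against 25.5 and 50.6 in DMSO libraries. In the IR, AZD6738 and DMSO groups library B was 1.90 to 2.06 times library A (0.1 FPKM added to both), and no comparison passed (adjusted p = 0.138 in AZD6738+IR against DMSO). With the library letter as a block it passed there (adjusted p = 0.0315) and against AZD6738 (adjusted p = 0.0382), although no label tells whether the letters pair libraries.

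Amino acid and peptide carriers moved both ways. SLC15A3 (GENCODE v29, GRCh38, chr11:60937084-60952530, minus strand), a proton-coupled histidine and peptide transporter of endosomes and lysosomes, had 8.22 and 6.94 FPKM in AZD6738+IR libraries, 0.0499 and 0.0507 in IR libraries and 0.00677 and 0 in AZD6738 libraries, against 0 and 0 in DMSO libraries. Both DMSO libraries and AZD6738 B list it at 0, so no fold is given against those groups. It entered the gene set through AZD6738+IR alone, so its difference is a condition of its being described and is given with no test: AZD6738+IR stood 151-fold above IR. SLC1A3, the glutamate and aspartate transporter EAAT1, had 7.10 and 7.26 FPKM in AZD6738+IR libraries, 4.62 and 4.96 in IR libraries and 4.42 and 4.62 in AZD6738 libraries, against 4.75 and 5.08 in DMSO libraries. It rose in AZD6738+IR against IR by 1.5-fold (log2 difference 0.50, SE 0.0498, adjusted p = 0.000593), and IR differed from DMSO by -0.03 (adjusted p = 0.625).

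SLC7A11, the cystine and glutamate exchanger xCT, was low in all irradiated libraries and uneven between the libraries of the other groups. It had 1.94 and 1.93 FPKM in AZD6738+IR libraries, 2.62 and 2.29 in IR libraries and 17.8 and 9.23 in AZD6738 libraries, against 10.9 and 6.40 in DMSO libraries. It fell 4.46-fold in AZD6738+IR against DMSO (log2 difference -1.68, SE 0.331, adjusted p = 0.00454) and 3.52-fold in IR against DMSO (log2 difference -1.44, SE 0.331, adjusted p = 0.0108). The call in IR against DMSO ended without IR B (adjusted p = 0.0528) or DMSO A (adjusted p = 0.0533). SLC6A15, a sodium-coupled transporter of branched-chain amino acids and proline, had 3.25 and 3.55 FPKM in AZD6738+IR libraries, 5.48 and 5.75 in IR libraries and 11.2 and 13.9 in AZD6738 libraries, against 11.4 and 15.5 in DMSO libraries. It fell 2.40-fold in IR against DMSO (log2 difference -1.12, SE 0.154, adjusted p = 0.00137), and its further fall in AZD6738+IR against IR (log2 difference -0.59, SE 0.154, adjusted p = 0.0217) was lost without any 1 of the 4 irradiated libraries (adjusted p = 0.0566 to 0.0927).

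SLC38A1, a sodium-coupled glutamine transporter (SNAT1), had 24.2 and 22.9 FPKM in AZD6738+IR libraries, 39.4 and 38.6 in IR libraries and 63.2 and 57.5 in AZD6738 libraries, against 54.1 and 54.5 in DMSO libraries. Irradiated libraries all lay below unirradiated ones, and AZD6738+IR lay below IR. The fall was 1.39-fold in IR against DMSO (log2 difference -0.47, SE 0.0538, adjusted p = 0.000652) and 1.65-fold in AZD6738+IR against IR (log2 difference -0.70, SE 0.0538, adjusted p = 0.000242). The taurine transporter SLC6A6 had 2.67 and 2.63 FPKM in AZD6738+IR libraries, 4.31 and 4.73 in IR libraries and 2.53 and 5.06 in AZD6738 libraries, against 5.43 and 4.95 in DMSO libraries. Its fall in AZD6738+IR against DMSO (log2 difference -0.76, SE 0.236, adjusted p = 0.0277) was lost without AZD6738+IR A, AZD6738+IR B, DMSO A or DMSO B (log2 differences -0.82 to -0.71). Against IR it was not called, and it passed in a fit of only these groups (log2 difference -0.60, SE 0.0597, adjusted p = 0.00668).

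Lysosomal carriers are counted with these classes by substrate. SLC17A5, the sialic acid exporter sialin, had 7.12 and 7.21 FPKM in AZD6738+IR libraries, 5.39 and 5.08 in IR libraries and 3.14 and 3.09 in AZD6738 libraries, against 3.03 and 3.35 in DMSO libraries. It rose 1.64-fold in IR against DMSO (log2 difference 0.58, SE 0.0508, adjusted p = 0.000235) and 1.37-fold in AZD6738+IR against IR (log2 difference 0.39, SE 0.0508, adjusted p = 0.00161). SLC46A3, a lysosomal carrier known for moving drug conjugates out of lysosomes and named after its values were seen, had 3.38 and 3.22 FPKM in AZD6738+IR libraries, 4.70 and 4.26 in IR libraries and 1.44 and 1.43 in AZD6738 libraries, against 1.40 and 1.67 in DMSO libraries. It rose in IR against DMSO (log2 difference 1.11, SE 0.0686, adjusted p = 6.97e-05) and was lower in AZD6738+IR than in IR (log2 difference -0.35, SE 0.0686, adjusted p = 0.00753).

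Metal carriers of the SLC39 family rose more often than they fell: in IR against DMSO 5 of 7 were called higher and 0 lower with limma (0 lower at an unadjusted p under 0.05), whereas of 4 SLC30 zinc exporters 0 were higher and 2 lower (0 higher at an unadjusted p under 0.05). These counts are small and are read against 23.7% and 38.0% of all loci. SLC39A8 (ZIP8, a zinc and manganese importer) had 32.4 and 34.9 FPKM in AZD6738+IR libraries, 38.5 and 25.1 in IR libraries and 12.8 and 12.9 in AZD6738 libraries, against 11.1 and 11.4 in DMSO libraries. Every irradiated library was above every unirradiated one, and the IR libraries differed from each other by 1.53 times. It rose 2.83-fold in IR against DMSO (log2 difference 1.39, SE 0.182, adjusted p = 0.00110) and 2.99-fold in AZD6738+IR against DMSO (log2 difference 1.5, SE 0.182, adjusted p = 0.000521). SLC39A13 (ZIP13, which releases zinc from vesicles and the Golgi) had 15.2 and 13.1 FPKM in AZD6738+IR libraries, 16.6 and 15.4 in IR libraries and 7.81 and 7.69 in AZD6738 libraries, against 7.49 and 7.05 in DMSO libraries, and rose 2.20-fold in IR against DMSO (log2 difference 1.04, SE 0.0761, adjusted p = 0.000123). SLC39A6 (ZIP6, a zinc importer of the plasma membrane) had 65.0 and 62.8 FPKM in AZD6738+IR libraries, 61.2 and 61.6 in IR libraries and 33.7 and 34.6 in AZD6738 libraries, against 37.2 and 38.0 in DMSO libraries. It rose 1.63-fold in IR against DMSO (log2 difference 0.69, SE 0.0345, adjusted p = 3.89e-05), and AZD6738+IR differed from IR by 0.06 (adjusted p = 0.226).

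Other metal carriers fell or rose with irradiation. SLC30A5 (ZnT5, which loads zinc into the secretory pathway) had 5.65 and 5.24 FPKM in AZD6738+IR libraries, 7.82 and 8.26 in IR libraries and 12.1 and 12.1 in AZD6738 libraries, against 12.2 and 12.2 in DMSO libraries. It fell in steps, 1.52-fold in IR against DMSO (log2 difference -0.55, SE 0.0461, adjusted p = 0.000198) and 1.48-fold in AZD6738+IR against IR (log2 difference -0.49, SE 0.0461, adjusted p = 0.000492). The copper importer SLC31A1 (CTR1) had 7.16 and 6.71 FPKM in AZD6738+IR libraries, 8.46 and 8.05 in IR libraries and 14.9 and 14.3 in AZD6738 libraries, against 12.3 and 11.9 in DMSO libraries. It fell 1.47-fold in IR against DMSO (log2 difference -0.51, SE 0.0476, adjusted p = 0.000298), and its further fall against IR (log2 difference -0.22, SE 0.0476, adjusted p = 0.0105) was lost without IR A (adjusted p = 0.0626). SLC11A2 (DMT1, an importer of ferrous iron) had 10.4 and 9.45 FPKM in AZD6738+IR libraries, 10.7 and 10.7 in IR libraries and 7.24 and 7.2 in AZD6738 libraries, against 5.95 and 7.14 in DMSO libraries, a rise of 1.64-fold in IR against DMSO (log2 difference 0.64, SE 0.0833, adjusted p = 0.00109).

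Carriers of inorganic ions included the riser SLC26A2 and the abundant SLC20A1, which fell. SLC26A2, the sulfate transporter on which proteoglycan sulfation depends, had 23.9 and 26.1 FPKM in AZD6738+IR libraries, 39.9 and 43.2 in IR libraries and 11.9 and 11.9 in AZD6738 libraries, against 11.3 and 12.4 in DMSO libraries. The IR libraries were highest, AZD6738+IR libraries lay between, and the unirradiated groups overlapped. It rose 3.50-fold in IR against DMSO (log2 difference 1.72, SE 0.0669, adjusted p = 2.32e-05) and fell 1.66-fold in AZD6738+IR against IR (log2 difference -0.71, SE 0.0669, adjusted p = 0.000494). SLC20A1 (GENCODE v29, GRCh38, chr2:112645857-112663827, plus strand), whose promoter is shown above, had 48.4 and 46.7 FPKM in AZD6738+IR libraries, 81.8 and 82.8 in IR libraries and 102 and 104 in AZD6738 libraries, against 111 and 110 in DMSO libraries. It fell 1.34-fold in IR against DMSO (log2 difference -0.42, SE 0.0325, adjusted p = 0.000150) and 1.73-fold in AZD6738+IR against IR (log2 difference -0.78, SE 0.0325, adjusted p = 3.21e-05).

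SLC4A11, a member of the bicarbonate transporter family that moves protons and ammonia, had 6.82 and 5.61 FPKM in AZD6738+IR libraries, 6.55 and 5.97 in IR libraries and 2.18 and 2.51 in AZD6738 libraries, against 2.38 and 2.71 in DMSO libraries, and rose 2.46-fold in IR against DMSO (log2 difference 1.03, SE 0.103, adjusted p = 0.000380). The potassium and chloride exporter SLC12A7 (KCC4), named after its values were seen, had 2.29 and 1.84 FPKM in AZD6738+IR libraries, 1.32 and 1.41 in IR libraries and 0.363 and 0.444 in AZD6738 libraries, against 0.453 and 0.407 in DMSO libraries. It rose in IR against DMSO (log2 difference 0.72, SE 0.0827, adjusted p = 0.000633). SLC12A7 passed the mean of 1 FPKM through the irradiated groups alone, so this test is no independent support. Another, lower entry of the symbol, with a mean of 1.01 FPKM, had 2.01 and 2.05 FPKM in AZD6738+IR libraries and 1.11 and 1.09 in IR libraries. It had 0.585 and 0.388 FPKM in AZD6738 libraries, against 0.410 and 0.435 in DMSO libraries. In both entries AZD6738+IR lay above IR, IR lay above the unirradiated libraries, and AZD6738 and DMSO overlapped. The lower entry also passed the mean of 1 FPKM through the irradiated groups alone, so it is no independent support.

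The sodium, potassium and chloride importer SLC12A2 (NKCC1) had 3.47 and 3.21 FPKM in AZD6738+IR libraries, 5.18 and 4.85 in IR libraries and 6.33 and 6.05 in AZD6738 libraries, against 5.50 and 5.04 in DMSO libraries, and the sodium bicarbonate importer SLC4A7 had 2.76 and 2.79 FPKM in AZD6738+IR libraries, 3.74 and 4.34 in IR libraries and 4.50 and 4.81 in AZD6738 libraries, against 4.20 and 4.36 in DMSO libraries. Both fell in AZD6738+IR against IR (log2 difference -0.47, SE 0.0588, adjusted p = 0.00135 for SLC12A2; log2 difference -0.41, SE 0.0667, adjusted p = 0.00357 for SLC4A7), whereas IR against DMSO gave -0.06 (adjusted p = 0.409) and -0.07 (adjusted p = 0.399).

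Nucleoside, choline and vitamin carriers also moved both ways. SLC28A3 (CNT3, which couples nucleoside uptake to sodium), named after its values were seen, had 4.12 and 3.71 FPKM in AZD6738+IR libraries, 1.78 and 1.53 in IR libraries and 0.343 and 0.419 in AZD6738 libraries, against 0.333 and 0.354 in DMSO libraries. Irradiated libraries were 4.82-fold (IR, log2 difference 0.98, SE 0.0717, adjusted p = 0.000122) and 11.4-fold (AZD6738+IR, log2 difference 1.87, SE 0.0717, adjusted p = 5.4e-06) above DMSO, with no overlap. SLC28A3 passed the mean of 1 FPKM through the irradiated groups alone, so these tests are no independent support. SLC29A1 (ENT1, the equilibrative nucleoside transporter) had 1.91 and 1.52 FPKM in AZD6738+IR libraries, 3.74 and 3.45 in IR libraries and 3.06 and 3.57 in AZD6738 libraries, against 3.99 and 4.12 in DMSO libraries, and fell 2.10-fold in AZD6738+IR against IR (log2 difference -0.76, SE 0.0913, adjusted p = 0.00114), whereas IR against DMSO gave -0.14 (adjusted p = 0.233).

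SLC44A2, a choline transporter-like protein, had 17.0 and 16.0 FPKM in AZD6738+IR libraries, 13.4 and 13 in IR libraries and 3.63 and 4.43 in AZD6738 libraries, against 3.82 and 4.44 in DMSO libraries. It rose 3.20-fold in IR against DMSO (log2 difference 1.47, SE 0.0939, adjusted p = 7.74e-05), and its further rise against IR (log2 difference 0.30, SE 0.0939, adjusted p = 0.0389) was lost without any 1 of the 4 irradiated libraries (adjusted p = 0.0751 to 0.139). SLC44A1, the choline transporter of the same family, had 2.89 and 2.98 FPKM in AZD6738+IR libraries, 2.39 and 2.26 in IR libraries and 3.94 and 4.04 in AZD6738 libraries, against 3.82 and 3.72 in DMSO libraries. It fell in IR against DMSO (log2 difference -0.52, SE 0.0416, adjusted p = 0.000168) and was higher in AZD6738+IR than in IR (log2 difference 0.24, SE 0.0416, adjusted p = 0.00468). The thiamine transporter SLC19A2 had 3.54 and 3.40 FPKM in AZD6738+IR libraries, 4.29 and 4.56 in IR libraries and 6.30 and 6.17 in AZD6738 libraries, against 6.55 and 6.22 in DMSO libraries, and fell in IR against DMSO (log2 difference -0.44, SE 0.0454, adjusted p = 0.000412) and in AZD6738+IR against IR (log2 difference -0.28, SE 0.0454, adjusted p = 0.00369). SLC27A2, a fatty acid transport protein with acyl-CoA synthetase activity, had 1.33 and 1.62 FPKM in AZD6738+IR libraries, 2.13 and 2.17 in IR libraries and 2.47 and 2.51 in AZD6738 libraries, against 2.59 and 2.65 in DMSO libraries. Its fall in AZD6738+IR against DMSO was 1.78-fold (log2 difference -0.55, SE 0.0627, adjusted p = 0.000392).

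The SLC35 family brings nucleotide sugars and nucleotides into the endoplasmic reticulum and Golgi. Of its 17 members 3 rose (17.6%) and 5 fell (29.4%) in IR against DMSO, against 23.7% and 38.0% of all loci. SLC35E3 had 4.82 and 4.81 FPKM in AZD6738+IR libraries, 5.29 and 5.28 in IR libraries and 2.62 and 2.59 in AZD6738 libraries, against 2.71 and 2.81 in DMSO libraries, a rise of 1.92-fold in IR against DMSO (log2 difference 0.74, SE 0.0361, adjusted p = 3.72e-05). SLC35A5 had 6.58 and 6.36 FPKM in AZD6738+IR libraries, 5.93 and 5.85 in IR libraries and 8.18 and 7.88 in AZD6738 libraries, against 8.27 and 8.51 in DMSO libraries, a fall of 1.43-fold (log2 difference -0.45, SE 0.0383, adjusted p = 0.000212). SLC35B1, the importer of ATP into the endoplasmic reticulum, had 14.4 and 13.4 FPKM in AZD6738+IR libraries, 13.6 and 12.6 in IR libraries and 17.8 and 17.9 in AZD6738 libraries, against 16.4 and 17.1 in DMSO libraries, a fall of 1.28-fold (log2 difference -0.33, SE 0.0514, adjusted p = 0.00222).

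Of the 31 SLC25 carriers 14 fell in IR against DMSO, 5 rose and 12 were not called, and the lower summed level was carried by a few abundant members. The adenine nucleotide translocase SLC25A5 (ANT2; GENCODE v29, GRCh38, chrX:119468400-119471319, plus strand) had 109 and 102 FPKM in AZD6738+IR libraries, 163 and 163 in IR libraries and 268 and 269 in AZD6738 libraries, against 276 and 285 in DMSO libraries. Libraries of a group agreed closely, and the 2 irradiated groups did not overlap each other or the unirradiated groups. It fell 1.72-fold in IR against DMSO (log2 difference -0.78, SE 0.0391, adjusted p = 3.99e-05), 2.66-fold in AZD6738+IR against DMSO (log2 difference -1.40, SE 0.0391, adjusted p = 2.15e-06) and 1.54-fold in AZD6738+IR against IR (log2 difference -0.62, SE 0.0391, adjusted p = 0.000124). SLC25A4 (ANT1), much lower in level, had 5.20 and 5.17 FPKM in AZD6738+IR libraries, 6.32 and 6.27 in IR libraries and 10.7 and 11.1 in AZD6738 libraries, against 10.6 and 11.5 in DMSO libraries, and fell 1.75-fold in IR against DMSO (log2 difference -0.72, SE 0.0467, adjusted p = 8.04e-05). The phosphate carrier SLC25A3 had 134 and 126 FPKM in AZD6738+IR libraries, 195 and 194 in IR libraries and 257 and 259.9 in AZD6738 libraries, against 254 and 265 in DMSO libraries. It fell 1.33-fold in IR against DMSO (log2 difference -0.41, SE 0.0436, adjusted p = 0.000462) and 1.5-fold in AZD6738+IR against IR (log2 difference -0.58, SE 0.0436, adjusted p = 0.000225).

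The level of SLC25A6 (ANT3) is uncertain because the table holds it as 2 entries. GENCODE v29 places the gene at the same coordinates, 1386152 to 1392724, on X and Y. The higher entry had 75.6 and 120.3 FPKM in AZD6738+IR libraries, 208 and 179 in IR libraries and 347 and 306 in AZD6738 libraries, against 299.5 and 241 in DMSO libraries. The other entry had 53.8 and 0 FPKM in AZD6738+IR libraries, 0 and 148.5 in IR libraries and 0 and 154.2 in AZD6738 libraries, against 0 and 238.8 in DMSO libraries. It was therefore at 0 in 4 libraries and high in the others. The sums of both entries were 129.5 and 120.3 FPKM in AZD6738+IR libraries, 207.7 and 327.3 in IR libraries and 347.1 and 460.4 in AZD6738 libraries, against 299.5 and 479.4 in DMSO libraries. Both AZD6738+IR sums were below those of every other library, and the IR libraries overlapped with DMSO and lay below both AZD6738 libraries. The higher entry alone fell in AZD6738+IR against DMSO (log2 difference -1.48, SE 0.233, adjusted p = 0.00166), and its fall against IR (log2 difference -1.01, SE 0.233, adjusted p = 0.0140) was lost without IR A (adjusted p = 0.0717). In IR against DMSO it was not called (adjusted p = 0.124), and it passed without AZD6738+IR A or AZD6738+IR B (adjusted p = 0.0337).

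Other SLC25 carriers that fell have various substrates. SLC25A15, the ornithine carrier of the urea cycle, had 1.82 and 1.85 FPKM in AZD6738+IR libraries, 3.45 and 3.45 in IR libraries and 6.26 and 6.20 in AZD6738 libraries, against 6.13 and 5.88 in DMSO libraries. It fell 1.74-fold in IR against DMSO (log2 difference -0.65, SE 0.0371, adjusted p = 5.51e-05) and 1.88-fold in AZD6738+IR against IR (log2 difference -0.65, SE 0.0371, adjusted p = 9.18e-05). SLC25A38, a glycine carrier needed for haem synthesis, had 10.9 and 10.6 FPKM in AZD6738+IR libraries, 11.1 and 11.5 in IR libraries and 15.7 and 15.1 in AZD6738 libraries, against 16.7 and 16.7 in DMSO libraries, a fall of 1.47-fold in IR against DMSO (log2 difference -0.52, SE 0.0377, adjusted p = 0.000116). The pyrimidine nucleotide carrier SLC25A33 had 2.40 and 2.38 FPKM in AZD6738+IR libraries, 3.08 and 3.42 in IR libraries and 5.52 and 5.41 in AZD6738 libraries, against 5.14 and 5.03 in DMSO libraries, and fell in both steps, IR against DMSO (log2 difference -0.52, SE 0.0493, adjusted p = 0.000310) and AZD6738+IR against IR (log2 difference -0.32, SE 0.0493, adjusted p = 0.00287).

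SLC25A32, which carries FAD and has been described as a folate carrier, had 7.95 and 7.49 FPKM in AZD6738+IR libraries, 12.9 and 8.96 in IR libraries and 16.3 and 15.5 in AZD6738 libraries, against 14.8 and 14.8 in DMSO libraries. It fell in AZD6738+IR against DMSO (log2 difference -0.86, SE 0.149, adjusted p = 0.00257). Its call in IR against DMSO (log2 difference -0.42) stood at an adjusted p that rounds to 0.05, and was lost with a pseudocount of 0.1, with other scalings and without any library but IR A (adjusted p = 0.0558 to 0.14). Against IR it was not called (adjusted p = 0.0531), and it passed without IR B (adjusted p = 0.00214).

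A few mitochondrial carriers rose with irradiation. SLC25A20, which exchanges acylcarnitine for carnitine so that fatty acids reach the matrix, had 7.19 and 6.83 FPKM in AZD6738+IR libraries, 10.9 and 10.9 in IR libraries and 7.18 and 6.97 in AZD6738 libraries, against 7.03 and 6.45 in DMSO libraries. It was highest in both IR libraries, 1.62-fold above DMSO (log2 difference 0.62, SE 0.0498, adjusted p = 0.000167), and AZD6738+IR was 1.56-fold below IR (log2 difference -0.57, SE 0.0498, adjusted p = 0.000372). The dicarboxylate carrier SLC25A10 had 3.14 and 2.86 FPKM in AZD6738+IR libraries, 5.58 and 6.08 in IR libraries and 3.47 and 3.40 in AZD6738 libraries, against 3.95 and 3.51 in DMSO libraries, with a rise of 1.56-fold in IR against DMSO (log2 difference 0.53, SE 0.0676, adjusted p = 0.000988) and a fall of 1.95-fold in AZD6738+IR against IR (log2 difference -0.77, SE 0.0676, adjusted p = 0.000380). SLC25A1, the citrate carrier that supplies cytosolic acetyl-CoA, had 41.6 and 37.9 FPKM in AZD6738+IR libraries, 50.9 and 53.7 in IR libraries and 35.8 and 38.6 in AZD6738 libraries, against 39.8 and 38.4 in DMSO libraries, with a rise in IR against DMSO (log2 difference 0.41, SE 0.0624, adjusted p = 0.00207) and a fall in AZD6738+IR against IR (log2 difference -0.39, SE 0.0624, adjusted p = 0.00354). In these 3 genes the IR libraries lay above all others.

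The calcium-regulated carriers of ATP-Mg and phosphate differed among themselves. SLC25A25 had 6.11 and 5.62 FPKM in AZD6738+IR libraries, 4.46 and 4.29 in IR libraries and 2.70 and 2.43 in AZD6738 libraries, against 2.52 and 2.38 in DMSO libraries. It rose 1.79-fold in IR against DMSO (log2 difference 0.64, SE 0.0603, adjusted p = 0.000297) and 1.34-fold in AZD6738+IR against IR (log2 difference 0.35, SE 0.0603, adjusted p = 0.00450). SLC25A23 had 11.8 and 9.82 FPKM in AZD6738+IR libraries, 9.54 and 9.61 in IR libraries and 7.06 and 7.82 in AZD6738 libraries, against 7.86 and 7.72 in DMSO libraries. Its rise in AZD6738+IR against DMSO (log2 difference 0.42, SE 0.0855, adjusted p = 0.00524) passed, and its rise in IR against DMSO (log2 difference 0.27, SE 0.0855, adjusted p = 0.0364) was lost without IR A, IR B, DMSO A or DMSO B (adjusted p = 0.0996 to 0.123). SLC25A24, named after its values were seen, had 12.6 and 9.83 FPKM in AZD6738+IR libraries, 11.3 and 11.2 in IR libraries and 10.8 and 13.3 in AZD6738 libraries, against 13.2 and 14.4 in DMSO libraries. It was not called in IR against DMSO (log2 difference -0.28, SE 0.133, adjusted p = 0.121; adjusted p = 0.0177 in a fit of only these groups) or in AZD6738+IR against DMSO (log2 difference -0.29, SE 0.133, adjusted p = 0.0960; adjusted p = 0.0253 without AZD6738+IR A). The aspartate and glutamate carrier SLC25A13, the oxoglutarate carrier SLC25A11 and the mitochondrial iron importer SLC25A37 passed none of the comparisons with DMSO (adjusted p = 0.369, 0.246 and 0.639 in AZD6738+IR against DMSO). Without AZD6738+IR B, SLC25A11 passed there (adjusted p = 0.00201), as did SLC25A37 (adjusted p = 0.0194).

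**Figure D3:**
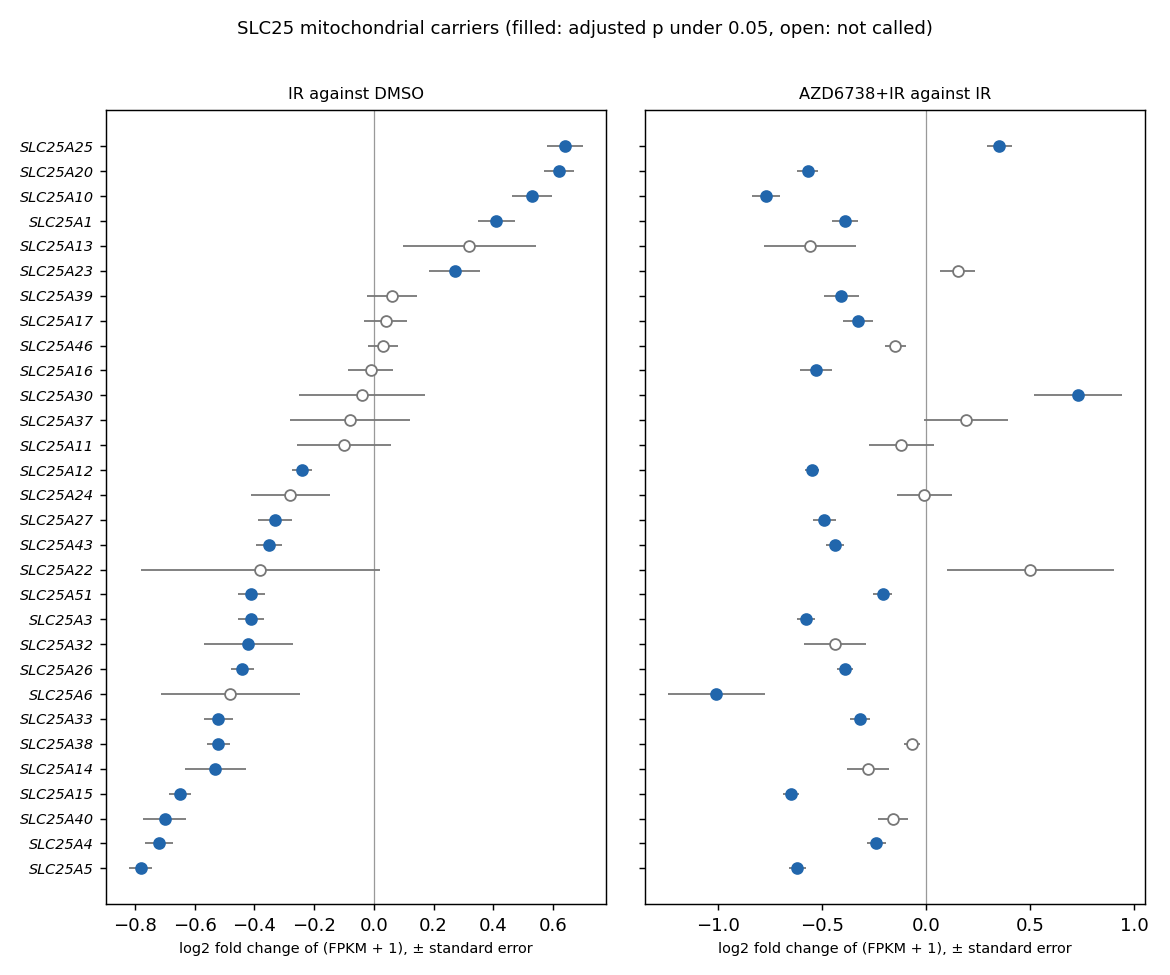
Log2 difference on log2(FPKM + 1) of 30 of the 31 SLC25 carriers in IR against DMSO and in AZD6738+IR against IR, with standard errors; each row is a gene and filled points passed an adjusted p of 0.05. SLC25A5 and SLC25A4 were lowest in IR against DMSO, at -0.78 and -0.72, and SLC25A20 and SLC25A10, right of 0 there, lay left of 0 in AZD6738+IR against IR, at -0.57 and -0.77.

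Whether irradiation acted differently on a carrier with the inhibitor present was tested by the interaction: the irradiation difference in inhibitor-treated cells less that in vehicle-treated cells, on the log2 scale. Outside SLC25, SLC2A12 and SLC16A4 were among the genes with large positive values, and SLC38A1, SLC26A2, SLC20A1 and SLC12A2 among those with large negative values. Outside SLC25, 12 of 111 were called positive (10.8%) and 28 negative (25.2%), against 13.1% and 22.4% (35.5% in either direction) of all loci. Of the 31 SLC25 carriers 1 was positive (3.23%) and 16 negative (51.6%), with a median of -0.38 against -0.06 over all loci. The value of 3.02 for SLC15A3 is a description, since it passed the mean of 1 FPKM through AZD6738+IR alone. For SLC2A12, which passed the mean of 1 FPKM through the irradiated groups alone, the interaction was 1.06 (adjusted p = 0.00263). The interaction was 1.01 for SLC16A4 (adjusted p = 0.000220). It was -0.85 for SLC38A1 (adjusted p = 0.000921) and -0.68 for SLC20A1 (adjusted p = 0.000376). For SLC25A5, SLC25A3 and SLC25A15 it was -0.56, -0.58 and -0.70 (adjusted p = 0.00124, 0.00160 and 0.000553). Outside SLC25 fewer were called without IR A, without IR B or without AZD6738 A than the 40 called with all libraries. The share of all loci called in those fits is not given here, so this drop is not read as particular to carriers.

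**Figure D4:**
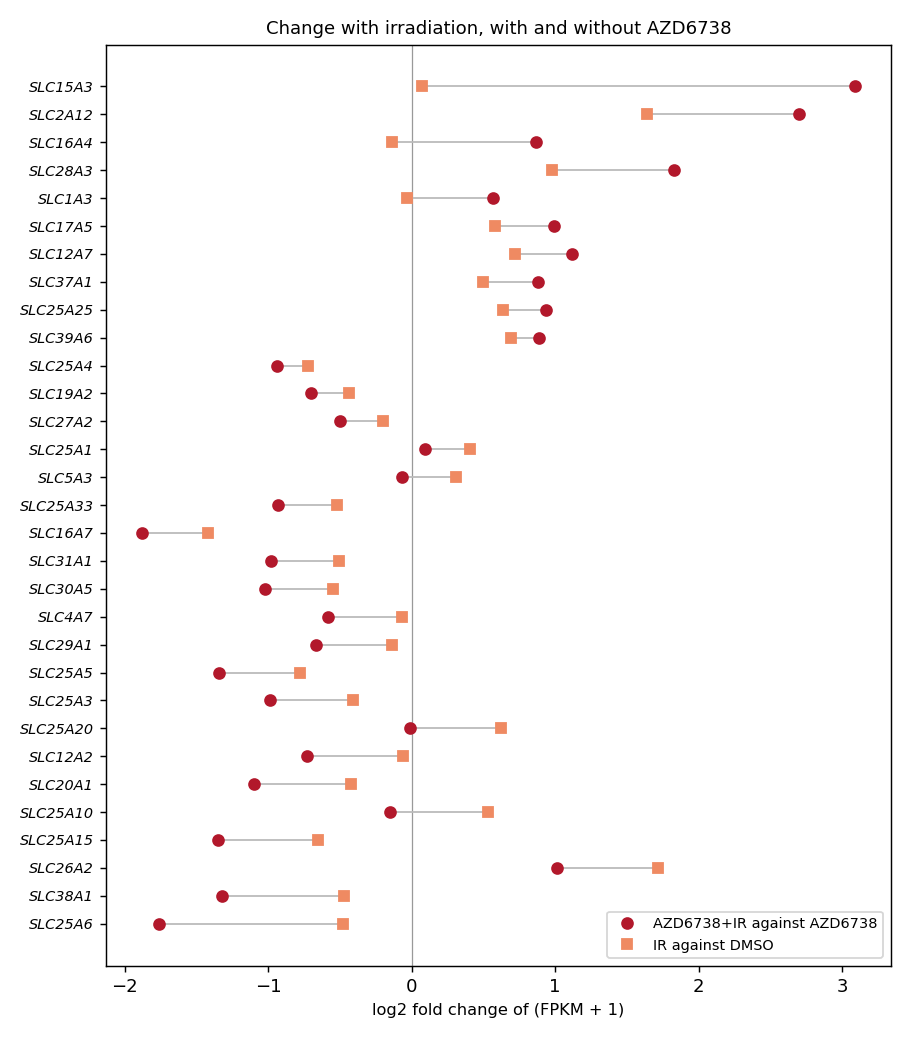
Log2 difference on log2(FPKM + 1) with irradiation for 31 named carriers with a called interaction; circles are AZD6738+IR against AZD6738, squares are IR against DMSO, and the line between them is the interaction. SLC15A3, at the top, has 3.09 with the inhibitor and 0.07 without it (a description, since AZD6738+IR alone brought it past the mean of 1 FPKM), and SLC25A6, at the bottom, has -1.76 and -0.48.

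Genes that work with carriers were read as lists. Of 13 tested partners and mitochondrial pores, 0 rose and 5 fell in IR against DMSO, and 0 rose and 8 fell in AZD6738+IR against IR (limma, 1 and 0 higher at an unadjusted p under 0.05). The shares over all loci were 23.7% and 38.0%, and 19.6% and 31.5%. VDAC1, the main pore of the outer mitochondrial membrane, had 173 and 187 FPKM in AZD6738+IR libraries, 251 and 261 in IR libraries and 302 and 305 in AZD6738 libraries, against 298 and 312 in DMSO libraries. TIMM9, a chaperone that hands carriers to the inner membrane, had 4.24 and 4.57 FPKM in AZD6738+IR libraries, 6.28 and 8.89 in IR libraries and 12.4 and 11.4 in AZD6738 libraries, against 9.73 and 14.5 in DMSO libraries, and BSG, the chaperone of MCT1 and MCT4, had 272 and 250.1 FPKM in AZD6738+IR libraries, 276 and 276 in IR libraries and 265 and 267 in AZD6738 libraries, against 277 and 269 in DMSO libraries. VDAC1 and TIMM9 fell in AZD6738+IR against DMSO (log2 differences -0.76 and -1.26, adjusted p = 3.89e-05 and 0.00216), and BSG gave -0.06 (adjusted p = 0.253).

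Of 21 tested ion pumps 14 rose and 1 fell in IR against DMSO (66.7% and 4.76%, against 23.7% and 38.0% of all loci). In AZD6738+IR against IR 2 rose and 11 fell (9.52% and 52.4%, against 19.6% and 31.5%). The rises were mostly subunits of the vacuolar proton pump, which drives proton-coupled carriers of lysosomes. ATP6V1E1 had 86.7 and 82.7 FPKM in AZD6738+IR libraries, 74.6 and 74.9 in IR libraries and 43.8 and 43.4 in AZD6738 libraries, against 42.1 and 44.1 in DMSO libraries, and ATP6V0E1 had 260 and 249 FPKM in AZD6738+IR libraries, 251 and 251 in IR libraries and 143 and 153 in AZD6738 libraries, against 144 and 153 in DMSO libraries. Both rose in IR against DMSO (log2 differences 0.78 and 0.76, adjusted p = 4.08e-05 and 9.47e-05).

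Of 12 tested genes of zinc and iron handling 2 rose and 5 fell in IR against DMSO (16.7% and 41.7%, against 23.7% and 38.0% of all loci), and 5 rose and 2 fell in AZD6738+IR against IR (41.7% and 16.7%, against 19.6% and 31.5%). MT1X, a zinc-binding metallothionein, had 59.1 and 51.0 FPKM in AZD6738+IR libraries, 33.0 and 31.4 in IR libraries and 69.7 and 72.6 in AZD6738 libraries, against 82.7 and 82.3 in DMSO libraries, and FTL, the ferritin light chain that stores iron, had 217 and 217 FPKM in AZD6738+IR libraries, 182 and 186 in IR libraries and 435 and 430 in AZD6738 libraries, against 478 and 476 in DMSO libraries. Both fell in IR against DMSO (log2 differences -1.33 and -1.37, adjusted p = 5.1e-05 and 7.9e-06). TFRC, the transferrin receptor, had 55.1 and 58.6 FPKM in AZD6738+IR libraries, 112 and 116 in IR libraries and 83.0 and 82.3 in AZD6738 libraries, against 84.7 and 92.0 in DMSO libraries, highest in IR libraries and lowest in AZD6738+IR libraries. HMOX1, which frees iron from haem, had 7.55 and 6.31 FPKM in AZD6738+IR libraries, 1.49 and 1.51 in IR libraries and 0.773 and 0.793 in AZD6738 libraries, against 0.869 and 0.825 in DMSO libraries, and rose in AZD6738+IR against DMSO (log2 difference 2.10, adjusted p = 4.85e-06). Of 16 tested ABC transporters, which use ATP and are no solute carriers, 4 rose (25%) and 6 fell (37.5%) in IR against DMSO, close to the 23.7% and 38.0% of all loci. In AZD6738+IR against IR 3 rose and 9 fell (18.8% and 56.2%, against 19.6% and 31.5%). The genes named in these lists were chosen after their values were seen.

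Libraries of a group did not agree for every carrier. In 14 of the 142 genes (9.86%) the libraries of at least 1 group differed by more than 1.5 times after 0.1 FPKM was added, against 11.6% of tested loci. The widest gap was that of SLC35B2, which imports the sulfate donor PAPS into the Golgi, with 10.4 and 3.53 FPKM in AZD6738+IR libraries, 4.41 and 9.55 in IR libraries and 3.01 and 2.85 in AZD6738 libraries, against 3.29 and 2.85 in DMSO libraries. SLC25A22, a mitochondrial glutamate carrier, had 5.84 and 4.59 FPKM in AZD6738+IR libraries, 5.22 and 2.09 in IR libraries and 2.08 and 4.53 in AZD6738 libraries, against 4.98 and 4.44 in DMSO libraries, and the UDP-galactose transporter SLC35A2 had 4.07 and 7.23 FPKM in AZD6738+IR libraries, 5.55 and 6.53 in IR libraries and 2.26 and 4.98 in AZD6738 libraries, against 4.18 and 2.31 in DMSO libraries. These 3 were named after their values were seen, and none passed the comparison of IR with DMSO or of AZD6738+IR with DMSO with all libraries (adjusted p = 0.176, 0.809 and 0.182 in AZD6738+IR against DMSO). Without AZD6738+IR B, SLC35B2 passed in AZD6738+IR against DMSO (adjusted p = 0.0224). The median of B over A across the 142 genes was 0.949 in AZD6738+IR, 0.994 in IR, 0.992 in AZD6738 and 0.984 in DMSO libraries. Over all tested loci it was 0.97, 1.0, 1.0 and 0.997 in the same order.

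**Figure D5:**
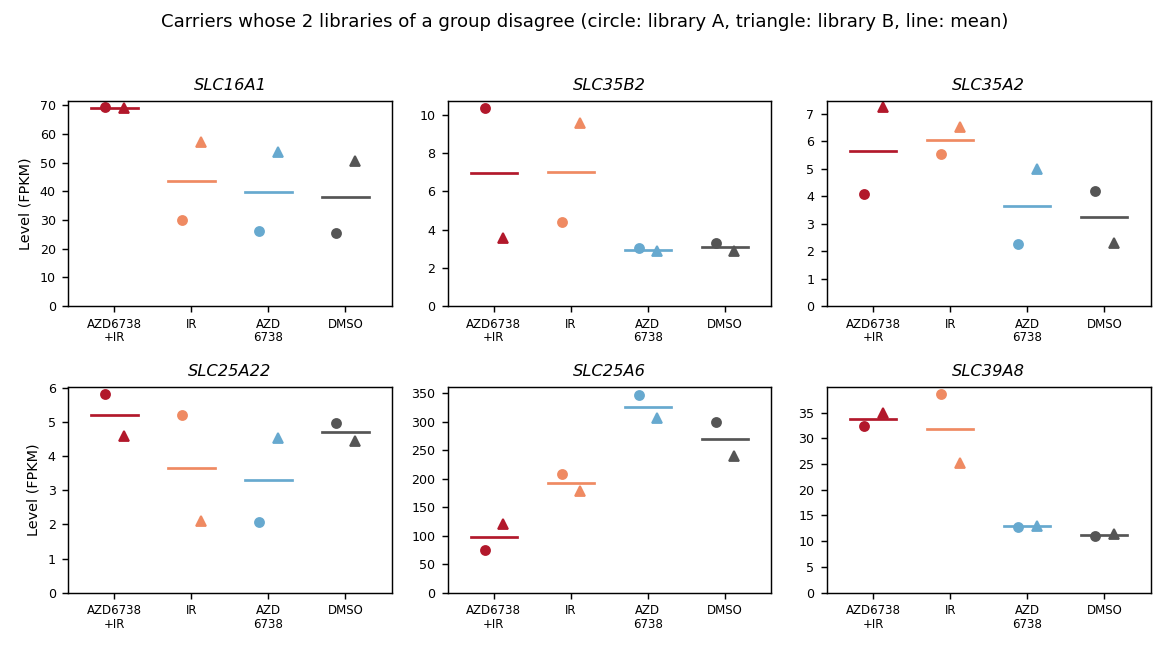
Level in FPKM (linear axes from 0) of 6 carriers whose libraries differed by more than 1.5 times in at least 1 group; circles are library A, triangles library B and lines group means. SLC16A1 had 26.0 and 53.5 FPKM in AZD6738 libraries and 25.5 and 50.6 in DMSO libraries.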

How the data were processed

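The deposited data are a single table over 8 MCF10A libraries, already filtered by its authors. The submitters' processing notes name FastQC, HISAT2 2.0.4, StringTie 1.3.4d and hg38, while settings and filter are not given there. No unit stands in the table per the file headers, and the deposited values were read as FPKM because StringTie writes that unit. TPM, which StringTie writes too, would look alike. Such values scale out length and library total, so abundant RNAs can press down the rest, and read depth and its counting error are unknown. The p-value columns deposited by the authors name no comparison and were not used.

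Of 14944 entries, 299 lower entries of 217 repeated symbols were left out. A symbol was missing for 5182 entries, which were kept among the loci, and carriers among them could not be chosen by symbol. Columns carry the letters A and B where labels number replicates, so groups are known but replicate numbers are not, and 0 value columns belong to no sample. No replicate pair held identical values.

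limma 3.58.1 in R 4.3.3 was run on log2(FPKM + 1) with 1 coefficient a group, an intensity trend and the 12809 loci averaging 1 or more, which left 4 residual and 1.79 prior degrees of freedom. All 6 contrasts were two-sided with Benjamini-Hochberg adjustment over these loci, and calls are at an adjusted p under 0.05. The script was tested on simulated data. Alternatives were a pseudocount of 0.1, no filter, a mean of at least 5, quantile normalization, median centring, only the groups compared, no trend, the library letter as a block, and leaving out each library.

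The genes, the lists and the rule for names were chosen with earlier results of these data known. For each contrast the rule took called genes that averaged 5 FPKM or more in their higher group and whose libraries did not overlap (overlap was allowed for the interaction). By size it took up to 6 rises and 6 falls outside SLC25 and up to 4 and 4 within it (interaction 4 and 4, 3 and 3). It added up to 2 called genes of each substrate class by IR against DMSO, and 37 genes fixed by name. Of those 37, 31 are among the 142. SLC2A3 averaged under 1, and SLC7A1, SLC30A1, SLC40A1, SLC19A1 and SLC25A28 were not analysed here. The rule named 53 genes, and 8 more were named after their values were seen. Results of 3 of these genes are not reported here. Gene coordinates are from GENCODE v29 and promoters from RefSeq.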

Additional observations from a re-analysis of the deposited data

Results flagged for a closer look

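For 31 named carriers the effect of irradiation differed between cells with and without AZD6738 by the test of that difference (the interaction in limma, on log2(FPKM + 1), adjusted over all tested loci). Adjusted p-values stand in parentheses. SLC2A12, SLC28A3, SLC12A7 and SLC16A7 averaged under 1 FPKM in at least 1 group and passed through the groups where they were higher.

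Outside SLC25 the interaction was positive for SLC15A3 at 3.02 (to be read as a description, since AZD6738+IR alone brought it past the mean of 1 FPKM), SLC2A12 at 1.06 (0.00263), SLC16A4 at 1.01 (0.000220), SLC28A3 at 0.85 (0.00228), SLC1A3 at 0.60 (0.00219), SLC17A5 at 0.41 (0.00781), SLC12A7 at 0.40 (0.0444), SLC37A1 at 0.38 (0.0403) and SLC39A6 at 0.19 (0.0285). It was negative for SLC38A1 at -0.85 (0.000921), SLC26A2 at -0.71 (0.00318), SLC20A1 at -0.68 (0.000376), SLC12A2 at -0.67 (0.00264), SLC29A1 at -0.53 (0.0245), SLC4A7 at -0.51 (0.00949), SLC30A5 at -0.48 (0.00349), SLC31A1 at -0.47 (0.00400), SLC16A7 at -0.46 (0.0174), SLC5A3 at -0.38 (0.00399), SLC27A2 at -0.30 (0.0454) and SLC19A2 at -0.25 (0.0290).

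Within SLC25 it was positive for SLC25A25 at 0.30 (0.0391). It was negative for SLC25A6 at -1.29 (0.0290), SLC25A15 at -0.70 (0.000553), SLC25A10 at -0.68 (0.00383), SLC25A20 at -0.64 (0.00180), SLC25A3 at -0.58 (0.00160), SLC25A5 at -0.56 (0.00124), SLC25A33 at -0.41 (0.00715), SLC25A1 at -0.32 (0.0385) and SLC25A4 at -0.22 (0.0464).

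The calls of 11 of these genes ended without single libraries, with adjusted p-values of 0.0637 to 0.123 for SLC12A7 (any but AZD6738+IR B), 0.0655 to 0.116 for SLC37A1 (any but AZD6738 B), 0.0506 to 0.118 for SLC25A1 (any but AZD6738+IR A) and 0.0787 to 0.139 for SLC25A4 (any but DMSO B). They were 0.0679 to 0.116 for SLC25A25 (any but AZD6738+IR B and AZD6738 A), 0.0945 to 0.12 for SLC27A2 and 0.0546 to 0.102 for SLC39A6 (any but an AZD6738+IR library). They were 0.0534 to 0.0789 for SLC29A1 (an IR or DMSO library or AZD6738 B), 0.064 to 0.0942 for SLC19A2 (AZD6738+IR B, IR B, an AZD6738 library or DMSO B), 0.061 to 0.0888 for SLC25A6 (an IR or AZD6738 library or DMSO B) and 0.0566 to 0.0621 for SLC16A7 (AZD6738 A or DMSO B).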

How the results depend on the processing

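No called value of the named genes changed sign under the alternatives run on them. Genes not named were not followed singly. With a pseudocount of 0.1 the interaction calls of SLC12A7, SLC37A1 and SLC25A25 ended (limma, adjusted p = 0.0725, 0.0528 and 0.0511). Quantile normalization and median centring ended that of SLC25A4 (adjusted p = 0.0588 and 0.0715), and median centring that of SLC27A2 (0.0877). The same scalings gave SLC35A5 an interaction call (adjusted p = 0.0265 and 0.0343), and quantile normalization gave SLC46A3 one (0.0473). With a mean of at least 5 FPKM, which leaves 47 genes outside SLC25 and 18 within it to test, the numbers called outside and within SLC25 were 31 and 11 in IR against DMSO (63 and 19 in the reported fit), 37 and 12 in AZD6738+IR against DMSO (83 and 23), 21 and 13 in AZD6738+IR against IR (51 and 20), 36 and 12 in AZD6738+IR against AZD6738 (80 and 22) and 19 and 10 for the interaction (40 and 17). When 1 library was left out, where the lone library is assumed to vary like the others, the interaction calls outside SLC25 numbered 24 to 38 and within it 12 to 18. The other ranges were 54 to 66 and 17 to 19, 76 to 82 and 21 to 23, 38 to 51 and 17 to 22, and 68 to 79 and 19 to 22, in the order of the comparisons above. With the library letter as a replicate block the numbers were 65 and 18, 85 and 23, 49 and 23, 79 and 22, and 37 and 15. Of all loci, 66.6% were called in IR against DMSO with a mean of at least 5, 61.6% with the block and 61.8% in the reported fit. That share was lower when an IR or DMSO library was left out. The changes in number are therefore not read as particular to carriers. The deviations of same-lettered libraries correlated at -0.051 to 0.158 over all tested loci. Such weak correlations do not settle whether the letters pair libraries, and no label tells. Counting each named gene under each alternative, 33 values in IR against DMSO, 13 in AZD6738+IR against DMSO, 36 in AZD6738+IR against IR and 75 for the interaction lost their call, and 3, 11, 14 and 17 gained one, as did 12 in AZD6738+IR against AZD6738. Quantile normalization and median centring moved the median of all loci by at most 0.08 on the log2 scale. A fit of only the groups compared was not run for the interaction. Depth is unknown, and 2 libraries a group limit every standard error.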
